A study of Homo sapiens with 5 samples.

Results

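Heat shock proteins are molecular chaperones, which bind unfolded or partly folded proteins and let them fold, refold, or pass to a degradation pathway. The HSP70 and HSP90 machines work in cycles of ATP hydrolysis that co-chaperones start and reset, and the mitochondrial HSP60 chaperonin encloses its clients in a chamber capped by HSP10. Transcription of many of these genes rises under proteotoxic stress, when heat shock factor 1 (HSF1) forms trimers and binds heat shock elements, and tumor cells often carry high levels of these proteins. The genes described here are the 10 heat shock genes *HSP90AA1*, *HSP90AB1*, *HSPA8*, *HSPA5*, *HSPA9*, *HSPD1*, *HSPE1*, *DNAJB1*, *HSPH1*, and *HSF1*, which were found by symbol among the 27328 Ensembl genes of the count table, each in exactly 1 row.

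The counts come from TF-1, a human acute myeloid leukemia (AML) cell line of erythroid and myeloid progenitor character. Control cells carried *Cas9* and an sgRNA against the *Renilla luciferase* gene (2 libraries, sgCtrl pools 1 and 2), and *MTSS1* knockout cells carried *Cas9* and 1 of 3 sgRNAs against *MTSS1* (3 libraries, the sgMTSS1_1, sgMTSS1_2, and sgMTSS1_3 pools). Each library was made from 4 single-cell clones pooled before RNA extraction, so that a replicate is a pool of clones, each knockout replicate has a guide of its own, and p-values measure the spread between such pools. The authors left out a control pool and a knockout pool after an outlier test, and these were not analysed here. A level is thus an average over the cells of 4 clones, in which more cells with the transcript and more transcript per cell cannot be told apart.

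Totals were 2849979 and 3408827 counts in the control libraries and between 5442639 and 8854899 in the knockout libraries, and the effects of depth and of knockout cannot be told apart. Cytosolic ribosomal protein genes took 7.56% and 9.31% of the control counts and 17.7% (sgMTSS1_1), 11.9% (sgMTSS1_2), and 13.9% (sgMTSS1_3) of the knockout counts, whereas mitochondrially encoded genes took 13.9% and 8.63% in control and between 6.71% and 7.44% in knockout pools. The part of these differences in the results was not tested. All 10 markers of a hematopoietic progenitor line, among them *CD34*, *KIT*, and *GATA1*, had at least 3 counts in every library. Their summed level was between 1428 and 1712 CPM. The sets of T cells, B cells, epithelium, and fibroblasts, of only 2 markers each, summed to at most 25.6 CPM, and the T cell marker *CD3E* was not in the table. The progenitor markers *EPOR* (2.89 to 7.66 CPM) and *CSF2RA* (4.87 to 6.57 CPM) were below the epithelial *KRT8* (11.2 to 25.3 CPM) in every library. *MTSS1* mRNA, which need not fall when a guide disrupts the reading frame, was at 204 and 87.9 CPM in the control pools and 104 (sgMTSS1_1), 139 (sgMTSS1_2), and 49.9 CPM (sgMTSS1_3) in knockout pools, so the groups overlapped and this mRNA does not check the labels. The authors checked the loss of the protein by immunoblot.

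All 10 heat shock genes had enough counts to be tested. Levels are given in CPM, read counts relative to the library total after scaling with TMM factors, and changes as log2-fold changes of knockout over control, with their standard error (SE). Both the changes and the p-values, adjusted by Benjamini-Hochberg over 14391 genes, are those of the quasi-likelihood test in edgeR unless another tool is named. A gene was called when the adjusted p-value was under 0.05 and the log2-fold change above 1 or below −1. By this rule 1 of the 10 genes was higher in the knockout (*HSF1*) and 0 were lower, where 4.17% of all tested genes were higher and 1.01% lower. At an unadjusted p-value under 0.05, 3 of the 10 were higher and 2 lower, against 14.1% and 9.23% of all tested genes, and DESeq2 called 2 higher and 1 lower, against 7.34% and 1.69% of the genes it tested. Every knockout pool was above both control pools for 5 genes (22.2% of all tested genes) and below both for 2 genes (19.2% of all tested genes), and the groups overlapped for 3. The 10 genes had a median log2-fold change of 0.39, against −0.03 over all tested genes.

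**Figure D1:**
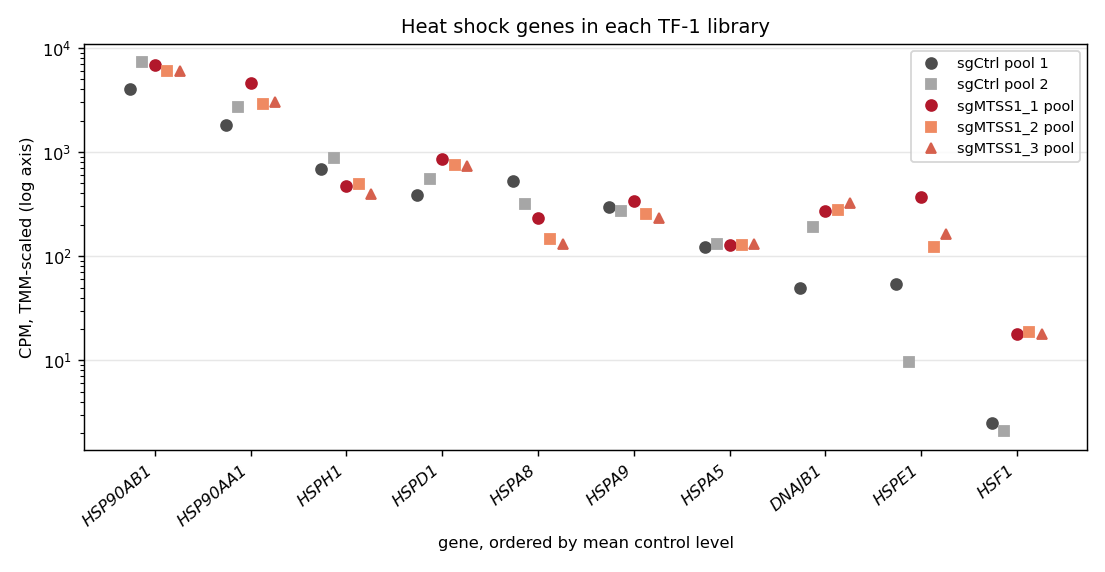
Level of each heat shock gene (horizontal axis, ordered by the mean of the control pools) in CPM on a log axis, with 1 point for each of the 2 control (gray) and 3 *MTSS1* knockout (red) libraries. *HSF1* lies near 2 CPM in both control pools and near 18 CPM in all 3 knockout pools, *HSPA5* lies at the same height in all 5, and *HSPE1* and *DNAJB1* differ widely between the control pools.

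HSF1 is the transcription factor that drives the heat shock response. Its mRNA was at 2.50 and 2.09 CPM in control pools 1 and 2, and at 17.8 (sgMTSS1_1), 18.8 (sgMTSS1_2), and 17.7 CPM (sgMTSS1_3) in knockout pools. The groups were far apart, and the 3 knockout pools lay within 1.06-fold of each other. The log2-fold change was 2.97 (SE 0.41, 95% interval 2.05 to 3.89, adjusted p = 0.00965), a rise of 7.83-fold. *HSF1* was also the least abundant of the 10 genes, with 8 and 7 counts in the control libraries against 137, 104, and 102 in the knockout libraries, and its control level ranked 12784 among the 14391 tested genes. It was called in each of the 13 alternative fits that retained it, with log2-fold changes from 2.83 to 3.12, and was at 3.02 when every library was thinned to 2849979 counts. A filter asking for 10 counts in every library removed it.

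*HSF1* (ENSG00000185122) lies on the plus strand of chromosome 8 of GRCh38, from 144291591 to 144314720, on the same chromosome as *MTSS1* (124550784 to 124728473), from which it is separated by 19563118 bases. The last 137 bases of *HSF1* overlap the end of *DGAT1*, a triglyceride synthesis enzyme encoded on the opposite strand. Because 3′ reads fall at transcript ends and the use of strand in counting is not stated, reads of *HSF1* and *DGAT1* may not be separable there. *DGAT1* was at 32.2 and 71.5 CPM in control and at 38.3, 41.2, and 52.4 CPM in knockout pools, so its groups overlapped. The part of *DGAT1* reads in the count of *HSF1* was not tested.

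HSF2, a second heat shock factor that can form mixed trimers with HSF1, showed a like contrast. *HSF2* mRNA was at 15.3 and 22.4 CPM in control and at 146, 163, and 180 CPM with knockout, which is 3.11 on the log2 scale (SE 0.34, adjusted p = 0.00457). Of the other genes listed as heat shock factors and regulators, *HSF4*, *HSF5*, and *HSBP1L1* had too few counts to be tested, and neither *HSBP1* nor *HSF2BP* was called.

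Among the chaperones themselves the differences were smaller or less even between pools. HSP90 completes the folding of kinases, steroid receptors, and other signaling proteins. In the cytosol it occurs as HSP90α, encoded by the stress-inducible *HSP90AA1* (ENSG00000080824, chr14:102080742-102139699, minus strand, GRCh38 as for all positions), and HSP90β, encoded by the constitutive *HSP90AB1* (ENSG00000096384, chr6:44246166-44253888, plus strand). These were the most abundant of the 10 genes and together supplied between 73.2% and 81.0% of their counts in each library. QuantSeq reads are primed at the poly(A) tail, so that CPM was compared between genes without division by transcript length. The removal of multiply mapped reads and the counts at pseudogenes, both described below, still limit such comparisons.

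*HSP90AB1* was at 4014 and 7244 CPM in control and at 6891, 6040, and 6011 CPM in knockout pools. All 3 knockout pools lay between the control pools, and the log2-fold change was 0.17 (SE 0.42, adjusted p = 0.853). It turned to −0.19 with control pool 1 left out. *HSP90AA1* was at 1820 and 2728 CPM in control and at 4617, 2858, and 2991 CPM in knockout pools. Every knockout pool was above both control pools, but sgMTSS1_2 only narrowly, and the log2-fold change of 0.62 (SE 0.41, adjusted p = 0.405) did not pass the test. It was 0.35 with the sgMTSS1_1 pool left out.

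The *HSP90AA1* promoter is among those that hold heat shock elements, which are inverted repeats of the unit GAA. Searched here were the pairs GAANNTTC and TTCNNGAA, and triples in which the pair GAANNTTC is followed, after 2 further bases, by another GAA, on both strands. A triple thus contains a pair of each kind, which overlap. RefSeq start sites on GRCh38.p14 were available for 9 of the 10 genes, 15 sites in all. In the 250 bases before the start, 5 of the 15 sites held a pair, against 11.6% of 35116 promoters, and 4 held a triple, against 0.441%. The 4 promoters below are shown because they carry these elements and belong to genes whose log2-fold changes differ in sign. Pairs are in capitals, each sequence reads 5′ to 3′ on the strand of the gene, and a match says only that these letters occur there.
*HSP90AA1*, chr14:102087045-102087294, minus strand: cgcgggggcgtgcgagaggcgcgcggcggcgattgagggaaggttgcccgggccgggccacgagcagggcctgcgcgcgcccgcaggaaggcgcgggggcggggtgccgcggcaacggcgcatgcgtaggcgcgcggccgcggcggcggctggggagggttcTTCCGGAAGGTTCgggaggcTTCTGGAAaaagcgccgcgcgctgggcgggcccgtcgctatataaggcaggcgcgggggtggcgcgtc
*HSPA8*, chr11:123062137-123062386, minus strand: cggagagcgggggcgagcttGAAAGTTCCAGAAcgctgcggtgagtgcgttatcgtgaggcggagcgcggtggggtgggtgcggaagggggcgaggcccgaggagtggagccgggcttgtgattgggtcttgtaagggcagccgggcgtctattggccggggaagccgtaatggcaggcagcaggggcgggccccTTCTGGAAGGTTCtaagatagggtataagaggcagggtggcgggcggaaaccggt
*DNAJB1*, chr19:14518398-14518647, minus strand: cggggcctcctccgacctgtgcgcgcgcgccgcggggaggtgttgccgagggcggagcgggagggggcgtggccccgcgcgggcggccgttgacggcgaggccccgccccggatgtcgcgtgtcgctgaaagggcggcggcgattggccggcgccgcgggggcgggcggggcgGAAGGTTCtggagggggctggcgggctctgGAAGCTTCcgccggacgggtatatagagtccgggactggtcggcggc
*HSPD1*, chr2:197499841-197500090, minus strand: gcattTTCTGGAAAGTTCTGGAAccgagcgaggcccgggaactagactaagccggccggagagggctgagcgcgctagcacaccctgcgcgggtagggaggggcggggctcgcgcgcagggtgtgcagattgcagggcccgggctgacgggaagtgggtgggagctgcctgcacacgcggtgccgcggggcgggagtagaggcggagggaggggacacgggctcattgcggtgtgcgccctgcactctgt

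*HSP90AA1* has a triple and a further pair that end between 61 and 81 bases before the start. *HSPA8* has 2 triples, the nearer of which ends 43 bases before the start, and *DNAJB1* has 2 separate pairs, at 70 and 40 bases. *HSPD1* holds 2 overlapping triples in 1 run of 4 units, whose nearest pair ends 228 bases before the start. Another gene with 2 triples is *HSP90AB1*, before 1 of its 3 start sites. No pair was found in the windows of *HSPA5*, *HSPA9*, *HSPE1*, and *HSPH1*, or before the other start sites of *HSP90AA1*, *HSP90AB1*, *HSPD1*, and *DNAJB1*.

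HSC70, encoded by *HSPA8* (ENSG00000109971, chr11:123057489-123063230, minus strand), is the constitutive cytosolic HSP70, which folds new polypeptides, uncoats clathrin vesicles, and carries clients to chaperone-mediated autophagy. *HSPA8* mRNA was at 532 and 316 CPM in control pools 1 and 2, and at 232 (sgMTSS1_1), 147 (sgMTSS1_2), and 130 CPM (sgMTSS1_3) in knockout pools. No knockout pool reached the lower control pool. The log2-fold change was −1.32 (SE 0.37, 95% interval −2.14 to −0.50), and with an adjusted p of 0.0673 in edgeR the gene was not called. It was −1.62 with control pool 2 left out and −0.88 with control pool 1 left out. Of 14 alternatives, 3 called *HSPA8* as lower, among them DESeq2 (−1.28, adjusted p = 0.0156) and scaling by library size alone (−1.50, adjusted p = 0.0334). Over all alternatives the adjusted p-value ranged from 0.0156 to 0.266. With scaling by library size alone the median over all genes was −0.17 rather than −0.03.

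The HSP70s of other compartments gave no such difference. BiP, encoded by *HSPA5* (ENSG00000044574, chr9:125234853-125241382, minus strand), is the HSP70 of the endoplasmic reticulum (ER) and a standard marker of the unfolded protein response. *HSPA5* was at 123 and 132 CPM in control and at 129, 129, and 130 CPM in knockout pools, the narrowest spread among the 10 genes. The log2-fold change was 0.02, with a 95% interval of −0.59 to 0.63, and its sign depended on the scaling. Mortalin, encoded by *HSPA9* (ENSG00000113013, chr5:138553756-138575675, minus strand), pulls precursor proteins into the mitochondrial matrix. *HSPA9* was at 297 and 269 CPM in control and at 340, 257, and 233 CPM in knockout pools. The groups overlapped, at −0.03 on the log2 scale (95% interval −0.72 to 0.65), and the sign turned when control pool 1 (0.05), the sgMTSS1_2 pool (0.06), or the sgMTSS1_3 pool (0.12) was left out. For *HSPA5*, leaving out control pool 1 gave −0.018.

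**Figure D2:**
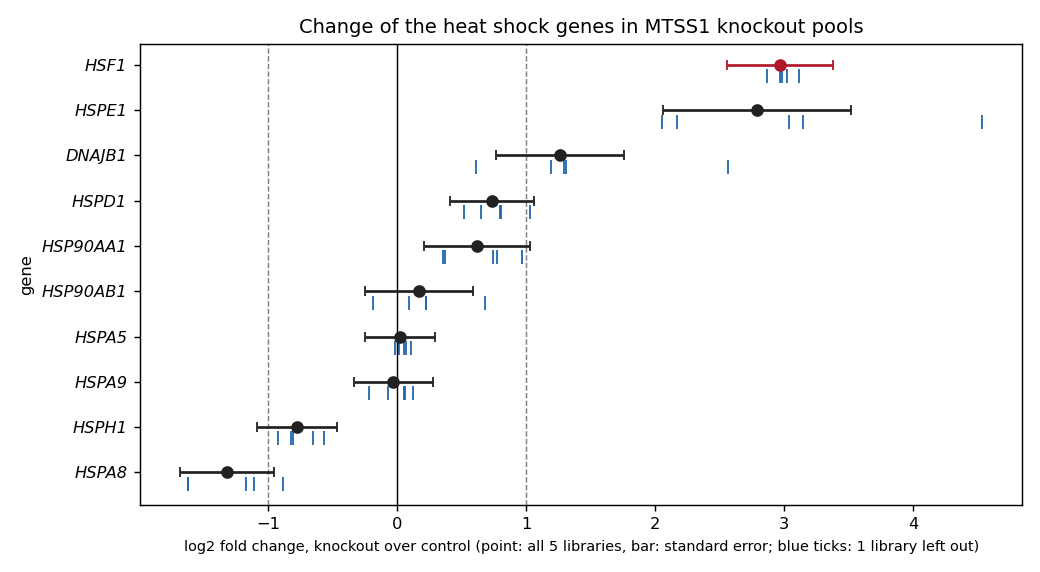
Log2-fold change of knockout over control (horizontal axis) for each heat shock gene, with all 5 libraries (points, with the standard error as bars) and with each library left out in turn (blue ticks). Dashed lines mark −1 and 1. *HSF1*, in red, is the 1 gene that was called, and its ticks lie between 2.87 and 3.11, while those of *HSPE1* run from 2.05 to 4.54 and those of *DNAJB1* from 0.61 to 2.56.

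HSP40, encoded by *DNAJB1* (ENSG00000132002, chr19:14514769-14560391, minus strand), delivers clients to HSP70 and stimulates its ATPase, and the gene is a classic target of HSF1. *DNAJB1* was at 50.03 and 192 CPM in control pools 1 and 2, and at 271, 277, and 322 CPM in knockout pools. All 3 knockout pools were above both control pools, but the control pools differed from each other by 3.83-fold and the knockout pools by at most 1.19-fold. The log2-fold change of 1.26 (SE 0.50, adjusted p = 0.168) was not called. It was 2.56 (adjusted p = 0.00897) with control pool 2 left out and 0.61 (adjusted p = 0.241) with control pool 1 left out, so the size of the difference rested on which control pool was used. *DNAJB1* is overlapped on the opposite strand by *TECR*, which had at most 14.8 CPM in any library.

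HSP110, encoded by *HSPH1* (ENSG00000120694, chr13:31134973-31162388, minus strand), exchanges the nucleotide of HSP70 and works with J proteins to dissolve aggregates. *HSPH1* was at 688 and 871 CPM in control and at 476, 496, and 392 CPM in knockout pools. As for *HSPA8*, the 3 knockout pools all lay under the lower control pool, and the change on the log2 scale was −0.78 (SE 0.31, adjusted p = 0.170). The value was negative in all 14 alternatives, from −0.93 to −0.57, and was called in none of them.

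The mitochondrial chaperonin consists of HSP60, encoded by *HSPD1* (ENSG00000144381, chr2:197486584-197516737, minus strand), and its lid HSP10, encoded by *HSPE1* (ENSG00000115541, chr2:197500140-197503449, plus strand). The genes are neighbors on chromosome 2 in opposite orientation, and the RefSeq start of *HSPE1* at 197500379 lies 105 and 539 bases from the start sites of *HSPD1*. The run of heat shock elements shown above lies between the more distant *HSPD1* start and the RefSeq start of *HSPE1*, 294 bases before the latter, and is downstream of the nearer *HSPD1* start. This run spans 197500068 to 197500085, and the *HSPE1* gene as annotated begins closer to it, at 197500140. For *HSPE1* only the window before the RefSeq start was searched. *HSPD1* was at 391 and 551 CPM in control and at 861, 749, and 738 CPM in knockout pools. Every knockout pool was above both control pools, and the change on the log2 scale was 0.73 (SE 0.33, adjusted p = 0.216).

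*HSPE1* was at 54.1 and 9.54 CPM in control pools 1 and 2, and at 372 (sgMTSS1_1), 123 (sgMTSS1_2), and 165 CPM (sgMTSS1_3) in knockout pools. All knockout pools were above both control pools, although the control pools differed by 5.67-fold and the knockout pools by up to 3.03-fold. The log2-fold change was 2.79 (SE 0.73, 95% interval 1.15 to 4.43), and the edgeR adjusted p of 0.0575 lay just outside the limit. Of the 14 alternatives, 7 called *HSPE1* as higher, among them DESeq2 (2.84, adjusted p = 6.6e-05) and limma-voom (3.10). The adjusted p-values ranged from 3.4e-06 to 0.180. The lowest came from the fit with the replicate number as a block, in which the sgMTSS1_3 pool has no control of its number. The log2-fold change was 4.54 with control pool 1 left out and 2.17 (adjusted p = 0.180) with the sgMTSS1_1 pool left out. The sgMTSS1_1 pool, with the highest level of *HSPE1*, also had the highest share of ribosomal protein counts, whose part in this level was not tested.

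Of the 10 genes, *HSPE1* shares the most sequence with other genes. Its transcript has 557 bases, and of the 451 windows of 50 bases, the length of a read, in the last 500 bases, 49.2% occur exactly in a transcript of another gene, most often the read-through gene *HSPE1-MOB4*. The share was 3.99% for *HSPA8*, 0.443% for *HSPA5*, and 0 for the other 7 genes. Reads that mapped to more than 1 place were removed by the authors. *HSPE1-MOB4* overlaps *HSPE1* on the same strand and was not in the table. A read shared with it alone can have 1 place in the genome, and how such reads were counted is not stated. Of 25 processed pseudogenes named after *HSPE1*, 13 were in the table, with 18 and 39 counts in the control libraries and 270, 77, and 120 in the knockout libraries. *HSPE1* itself had 173 and 32 counts in the control libraries and 2868, 679, and 948 in the knockout libraries. The pseudogenes thus had 122% of its counts in control pool 2, and between 9.41% and 12.7% in each other library. With these added to the gene, the log2-fold change was 2.59 (adjusted p = 0.0391).

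Processed pseudogenes named after the HSP90 genes had far more counts. *HSP90AB3P*, an intronless copy on chromosome 4 (87891843 to 87894015), was at 190 and 1658 CPM in control pools 1 and 2, and at 3777, 2105, and 2094 CPM in knockout pools. Its counts were 4.74% and 22.9% of those of *HSP90AB1* in the control libraries and 54.8%, 34.8%, and 34.8% in the knockout libraries. Every knockout pool was above both control pools, but the control pools differed widely and the log2-fold change of 1.52 was not called (adjusted p = 0.262). *HSP90AA4P* was at 585 and 584 CPM in control and at 346, 295, and 307 CPM in knockout pools (log2-fold change −0.89, adjusted p = 0.106). No window of the last 500 bases of *HSP90AB1* or *HSP90AA1* occurred exactly in another gene's transcript, and where in these copies the reads lay is not shown by a count table. With its 6 pseudogenes added, *HSP90AB1* had a log2-fold change of 0.42, and with its 5 added, *HSP90AA1* had one of 0.37.

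**Figure D3:**
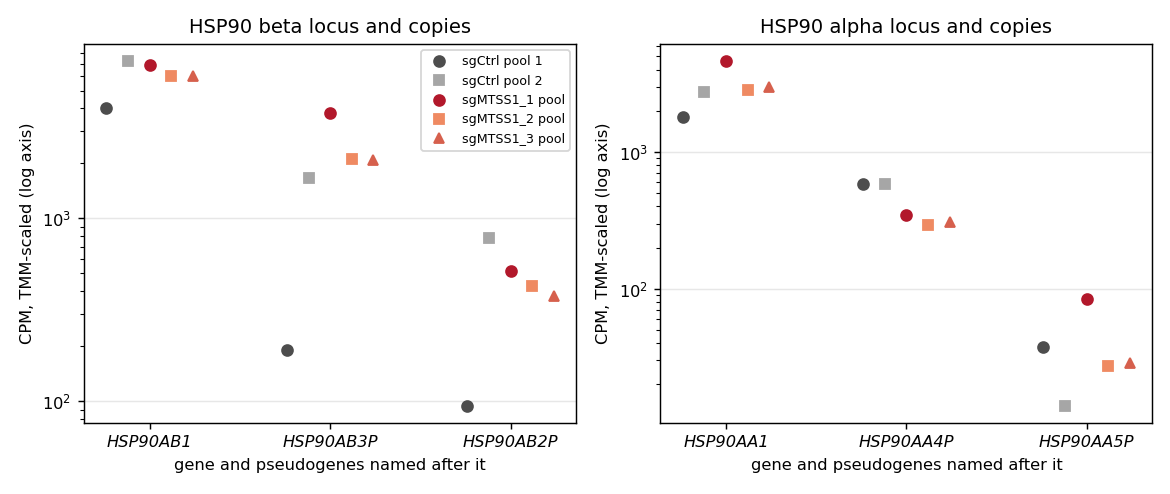
Level in CPM (log axis) of *HSP90AB1* (left) and *HSP90AA1* (right) beside processed pseudogenes named after each, with 1 point per library. *HSP90AB3P* ranges from 190 CPM in sgCtrl pool 1 to 3777 CPM in the sgMTSS1_1 pool, whereas *HSP90AB1* itself stays between 4014 and 7244 CPM.

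In the control pools the order of the mean levels was *HSP90AB1* (5629 CPM), *HSP90AA1* (2274 CPM), *HSPH1* (780 CPM), *HSPD1* (471 CPM), *HSPA8* (424 CPM), *HSPA9* (283 CPM), *HSPA5* (127 CPM), *DNAJB1* (121 CPM), *HSPE1* (31.8 CPM), and *HSF1* (2.29 CPM). Neighbors whose ranges overlapped were *HSPD1* and *HSPA8*, *HSPA5* and *DNAJB1*, and *DNAJB1* and *HSPE1*. In the knockout pools *HSPD1* (783 CPM) stood above *HSPH1* (454 CPM), and *HSPA8* (170 CPM) held the eighth place rather than the fifth, behind *DNAJB1* (290 CPM), *HSPA9* (276 CPM), and *HSPE1* (220 CPM). The ranges of these 4 and of *HSPA5* (129 CPM) overlapped from each to the next. The place of *HSPE1* in both orders is uncertain, because its multiply mapped reads were removed and their number is not known. The 10 genes together were at 7971 and 12314 CPM in control and at 14207, 11094, and 11130 CPM in knockout pools, so that their sum overlapped between the groups.

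Ratios of counts within a library do not depend on the scaling between libraries. For 6 pairs of genes they were compared with a two-sided exact permutation test, in which 2 against 3 libraries allow no p-value under 0.1. There were 0.0941 and 0.607 *DNAJB1* counts per *HSPA8* count in the control libraries and 1.17, 1.89, and 2.47 with knockout, so that *DNAJB1* had more counts than *HSPA8* in each knockout library and fewer in each control library (mean difference 2.88 on the log2 scale, exact p = 0.1, 0.15 adjusted over the 6 ratios). The difference was 1.54 with control pool 1 left out and 4.23 with control pool 2 left out. For *HSPA5* to *HSPA8* the ratios were 0.231 and 0.418 in control and 0.556, 0.878, and 1.001 in knockout pools (difference 1.34, exact p = 0.1). For *HSPA9* to *HSPA8* they were 0.559 and 0.851 against 1.47, 1.75, and 1.79 (difference 1.27, exact p = 0.1). These 3 ratios share *HSPA8* as denominator.

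*HSPE1* to *HSPD1* gave 0.138 and 0.0173 in control and 0.432, 0.164, and 0.223 in knockout pools (difference 2.36, exact p = 0.1). The difference was 0.86 with control pool 2 left out and 3.86 with control pool 1 left out. *HSPE1* had fewer counts than *HSPD1* in every library. Reads of *HSPE1* that also mapped to another place were removed, and how many were lost is not known. The ratio therefore does not give the ratio of the mRNAs. *HSP90AA1* to *HSP90AB1* gave 0.453 and 0.377 against 0.670, 0.473, and 0.498 (difference 0.39, exact p = 0.2), which turned to −0.18 when pseudogene counts were added and was 0.25 without control pool 2 and 0.23 without the sgMTSS1_1 pool. *HSPH1* to *HSPA8* overlapped between the groups (difference 0.54, exact p = 0.4) and turned to −0.0045 with control pool 1 left out.

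**Figure D4:**
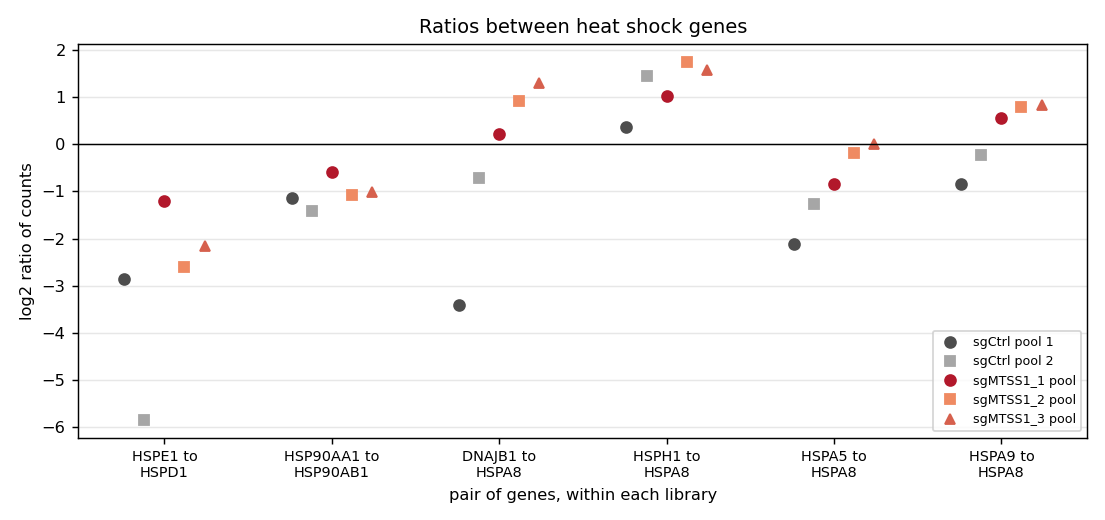
Log2 ratio of the counts of 2 heat shock genes within each library (vertical axis) for 6 pairs (horizontal axis), with 1 point per library. Knockout libraries (red) lie above both control libraries (gray) for 5 of the 6 pairs. For *HSP90AA1* to *HSP90AB1* they do so only narrowly (−1.08 in the sgMTSS1_2 pool, −1.14 in control pool 1). The pairs of *DNAJB1*, *HSPH1*, *HSPA5*, and *HSPA9* share *HSPA8* as denominator and are not independent. How often other gene pairs separate in this way was not tested. The *DNAJB1* to *HSPA8* ratio crosses 0, where both counts are equal, between the groups.

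The rest of the chaperone network was taken from 8 lists of 117 genes, of which 96 were tested. In these lists 2 genes were called as higher and 2 as lower, which is 2.08% in each direction, against 4.17% and 1.01% of all tested genes. The median log2-fold change was 0.01. The genes that rose were *HSF2* and *SERPINH1*, and those that fell were *HSPBP1* and *PPP5C*.

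Among 9 tested relatives of HSP70 and HSP110, 0 were called, and the median log2-fold change was 0.02. *HSPA4*, another HSP110 protein and the most abundant of them, was at 297 and 235 CPM in control and at 253, 276, and 294 CPM in knockout pools. The stress-inducible HSP70 genes were at low levels. *HSPA1B* was at 17.2 and 5.96 CPM in control and at 27.9, 24.4, and 30.8 CPM in knockout pools (log2-fold change 1.26, adjusted p = 0.1298). Its change was 2.22 with control pool 1 left out and 0.71 with control pool 2 left out. *HSPA1A* was at 21.6 and 5.96 CPM against 24.4, 18.4, and 17.4 CPM (0.55, adjusted p = 0.549). Here the change was 1.76 with control pool 1 left out and turned to −0.074 with control pool 2 left out. *HSPA1A* and *HSPA1B* are nearly identical, so that removal of multiply mapped reads makes both counts uncertain.

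J proteins pass clients to HSP70. Of 36 tested, 0 were called, 17 had a positive log2-fold change, and the median was −0.02. *DNAJC8*, which had the highest mean over the 5 libraries but not over the control pools alone, was at 271 and 277 CPM in control and at 954, 477, and 470 CPM in knockout pools (log2-fold change 1.21, adjusted p = 0.111), and DESeq2 called it. Of 10 nucleotide exchange factors, 1 was called as lower and the median was −0.39. *HSPBP1*, which releases nucleotide from HSP70, was at 81.9 and 100.1 CPM in control and at 24.5, 41.0, and 41.8 CPM in knockout pools (log2-fold change −1.35, standard error 0.33, adjusted p = 0.0455). The call was lost with control pool 2 (−1.17), the sgMTSS1_1 pool (−1.15), the sgMTSS1_2 pool (−1.42), or the sgMTSS1_3 pool (−1.44) left out, and with at least 10 counts required in every library (−1.28, adjusted p = 0.0544). *BAG3*, which couples HSP70 to autophagy and is itself induced by heat shock, was at 16.6 and 11.3 CPM in control and at 17.9, 13.0, and 16.4 CPM in knockout pools.

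Of 15 HSP90 relatives and co-chaperones, 1 was called as lower and the median was 0.21. *PPP5C*, a phosphatase that docks on HSP90, was at 45.0 and 53.9 CPM in control and at 12.8, 18.4, and 15.0 CPM in knockout pools (log2-fold change −1.68, standard error 0.31, adjusted p = 0.0192). It missed the limit with the sgMTSS1_1 (adjusted p = 0.0746), sgMTSS1_2 (0.0523), or sgMTSS1_3 pool (0.0843) left out. *HSP90B1*, the HSP90 of the ER, was at 576 and 672 CPM in control and at 950, 776, and 543 CPM in knockout pools, with overlapping groups. Of the small heat shock proteins only *HSPB1* and *HSPB9* were tested, and neither was called. *HSPB1*, which holds unfolded proteins without ATP, was at 313 and 150 CPM in control and at 142, 209, and 145 CPM in knockout pools.

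Of 13 ER folding genes, 1 was called as higher and the median was 0.03. *SERPINH1*, a collagen chaperone of the ER also known as HSP47, was at 41.6 and 42.6 CPM in control and at 196, 197, and 153 CPM in knockout pools (log2-fold change 2.11, standard error 0.31, adjusted p = 0.0109). It was 1 of 4 genes of this list with all knockout pools above both control pools, a pattern found in 22.2% of all tested genes. Of 8 genes of mitochondrial folding and proteolysis, 0 were called and the median was −0.11. *SPG7*, a subunit of a mitochondrial inner membrane protease, was at 77.5 and 152 CPM in control and at 67.8, 102, and 88.6 CPM in knockout pools.

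**Figure D5:**
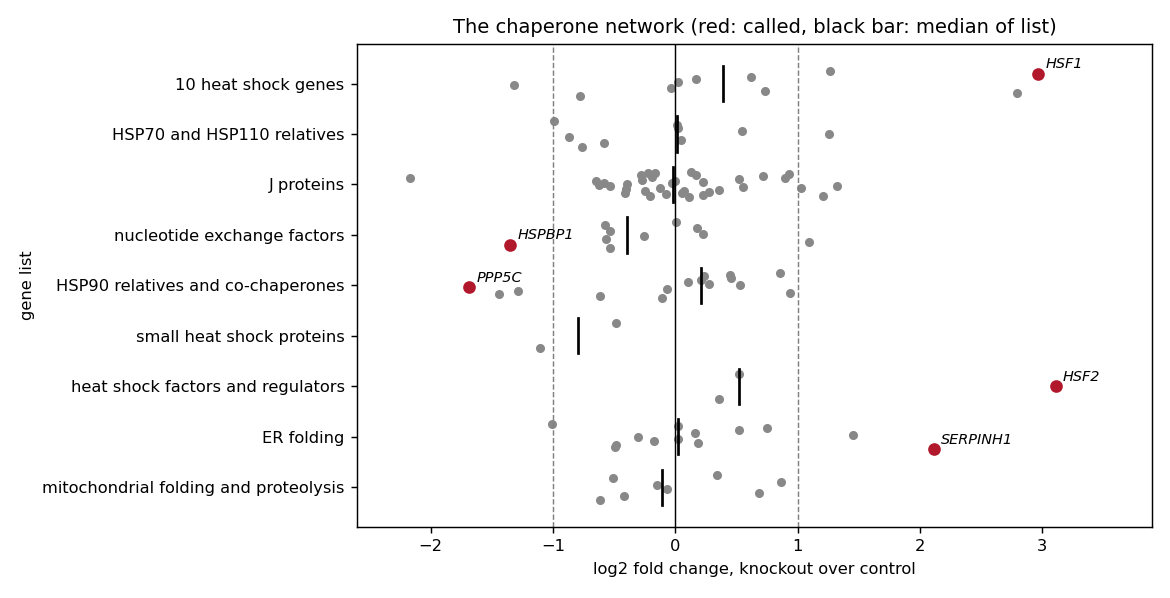
Log2-fold change of knockout over control (horizontal axis) for every tested gene of the 10 heat shock genes and of 8 lists of the chaperone network (vertical axis), with called genes in red and the median of each list as a black bar. The 5 called genes are *HSF1*, *HSF2*, *SERPINH1*, *HSPBP1*, and *PPP5C*, and the medians of the lists lie between −0.80, over 2 small heat shock proteins, and 0.52, over 3 heat shock factors and regulators.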

How the data were processed

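RNA-seq was performed by the authors on pooled TF-1 clones with a QuantSeq 3′ mRNA kit. They trimmed the single-end reads with BBDuk, aligned them to GRCh38 with HISAT2 2.1.0, used SAMtools 1.10 to drop reads without a unique position, and deposited raw counts for each Ensembl gene. How reads were counted (program, annotation, strand, duplicates) is not given in the sources used here. Libraries were grouped by their titles.

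Counts were filtered with filterByExpr (minimum count 10), normalized with TMM, and tested in R 4.3.3 with edgeR 4.0.16 (quasi-likelihood test, condition alone, all 5 libraries, Benjamini-Hochberg adjustment over 14391 genes). The thresholds are those of the authors, who used DESeq2. SEs were obtained by dividing each log2-fold change by the root of its F statistic. DESeq2 1.42.0, limma-voom (limma 3.58.1), other scalings and filters, thinning to 2849979 counts, a block for the replicate number, addition of pseudogene counts, and leaving out each library were tried as alternatives. Symbols, positions, and pseudogenes come from GENCODE on GRCh38 (27211 genes with a symbol) and promoters from RefSeq. A total of 3 counts corresponds to between 0.339 and 1.05 CPM of a library total, for counting error only.

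The 10 genes, the lists, and the tests were chosen with earlier results of these data known. Named from the lists are called genes, else the gene with the highest mean CPM, and 6 well-known partners or targets (*HSF2*, *HSPA1A*, *HSPA1B*, *HSPB1*, *BAG3*, and *HSP90B1*).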

Additional observations from a re-analysis of the deposited data

How the results depend on the processing

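*HSF1* was called in all 13 alternatives that retained it, and *HSP90AA1*, *HSP90AB1*, *HSPA5*, *HSPA9*, *HSPD1*, and *HSPH1* in none of 14. *HSPE1* passed with DESeq2 (2.84), library size alone (2.55), limma-voom (3.10), no filter (2.94), pseudogene counts added (2.59), and the replicate block (3.20), and *HSPA8* with DESeq2 (−1.28) and library size alone (−1.50). *HSPA5* turned to −0.11 with library size alone, −0.067 with pseudogene counts added, and −0.015 when thinned, and *HSPA9* to 0.042 with at least 10 counts in every library, 0.12 with no filter, and 0.065 with the replicate block. With no filter the median of all genes moved from −0.03 to 0.11. With library size alone *HSPA4* turned to −0.10. Pseudogene counts turned the *HSP90AA1* to *HSP90AB1* ratio to −0.18. The causes were not tested.

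Of the 10 genes, 2 were higher with DESeq2, library size alone, limma-voom, no filter, or pseudogene counts added, 3 with the replicate block, and 0 with at least 10 counts in every library, which removes *HSF1*; 1 was lower with DESeq2 or library size alone. In the wider lists 4 were higher with DESeq2 or the block and 5 with no filter, and 4 were lower with library size alone. Over all genes, 600 were higher and 145 lower, against 1034 and 238 with DESeq2, 1173 higher with no filter, and 232 lower with library size alone.

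With each library left out in turn, log2-fold changes ranged from −0.19 to 0.68 for *HSP90AB1*, −1.62 to −0.88 for *HSPA8*, −0.018 to 0.10 for *HSPA5*, −0.22 to 0.12 for *HSPA9*, 2.05 to 4.54 for *HSPE1*, and 0.61 to 2.56 for *DNAJB1*, and the *HSPH1* to *HSPA8* ratio from −0.0045 to 1.09. The 10 genes gave 1 to 2 higher and 0 to 1 lower, the wider lists 2 to 5 and 0 to 8, and all genes 107 to 917 and 4 to 432, with the lowest counts without the sgMTSS1_1 pool. *HSPA9* turned to 0.05, 0.06, and 0.12 without control pool 1, sgMTSS1_2, or sgMTSS1_3. Also turned were *HSPB1* (0.15 without control pool 1, range −0.90 to 0.15), and, without control pool 2, *HSPA4* (−0.085, range to 0.23), *SPG7* (0.18, range from −0.81), *HSPA1A* (−0.074, range to 1.76), and *BAG3* (−0.043, range to 0.49). A fit that leaves a lone control assumes that it varies like the knockout pools.

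The sgRNA and control pool numbers are shared by both groups, but nothing says that same-numbered pools were handled together, and the difference between numbers 1 and 2 had an r of 0.17 between the groups over 14391 genes. With the number as a block, 894 genes were higher and 200 lower, and *DNAJB1* passed (1.47). Control depth limits the precision for *HSF1*, at 8 and 7 counts.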
